A study of Homo sapiens with 22 samples.

Results

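The 10 tubulin genes described here, TUBA1A, TUBA1B, TUBA1C, TUBA4A, TUBB, TUBB2A, TUBB2B, TUBB4B, TUBB6 and TUBG1, were followed in BRIC-Seq libraries of HEK293T cells, a human embryonic kidney cell line. The members were chosen by gene symbol. Each was represented by 1 transcript, the protein-coding one with the highest mean read count over the 0 to 10 h libraries, and these 10 rows stood among 227264 transcripts in the count tables. All 10 passed the minimum mean of 1 CPM, a read count scaled to a common library size, which left 79513 transcripts to test. Shares of all transcripts given below count these rows, among them several rows of many genes, whereas each member is 1 row. Shares counted per gene are not given.

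In BRIC-Seq, cells take up bromouridine (BrU), a uridine analog that is built into new RNA, and the labelled RNA is pulled down after a chase without the analog. Cells expressed either a control shRNA (shControl) or an shRNA against ZNF598 (shZNF598), and both received 150 µM BrU for 24 h. ZNF598 is a ubiquitin ligase that recognises collided ribosomes. RNA was taken after chases of 0, 2, 4, 6 and 10 h in 2 libraries per shRNA and time, and after 24 h in 1 library per shRNA, which gave 22 libraries in 12 groups. All cells carried an shRNA, so no library came from cells without one. The labels do not say whether the libraries of a group came from separate cultures. The p-values therefore measure only the spread among these libraries, which may be technical. For slopes, fitted as straight lines, that spread includes departures from the line. How many of all transcripts had no overlap between groups was not counted. Statements of no overlap below are thus descriptions of few libraries and add no support to a call.

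Microtubules are built from dimers of α- and β-tubulin, each of which is encoded by several genes, and γ-tubulin, the product of TUBG1, starts new microtubules at the centrosome. Cells also control tubulin through its mRNA. When free dimers are abundant, TTC5 binds the start of nascent α- or β-tubulin as it leaves the ribosome, and SCAPER and the CNOT11 subunit of the CCR4-NOT deadenylase then lead to decay of the mRNA being translated. Ongoing translation is required for this autoregulation.

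The first bases of the coding sequences are shown because they encode the part of nascent tubulin that TTC5 reads. Each run gives the first 30 bases, 5′ to 3′, from GENCODE transcripts and the hg38 genome, with the first 4 codons in capitals.
TUBA1A: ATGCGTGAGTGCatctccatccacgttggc
TUBA1B: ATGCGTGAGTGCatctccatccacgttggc
TUBA1C: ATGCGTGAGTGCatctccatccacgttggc
TUBA4A (MANE Select transcript): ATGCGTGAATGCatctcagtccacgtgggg
TUBA4A (transcript counted here): ATGGGCAATGCCtgctgggagctctattgc
TUBB: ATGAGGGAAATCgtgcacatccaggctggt
TUBB2A: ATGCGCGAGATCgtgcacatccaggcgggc
TUBB2B: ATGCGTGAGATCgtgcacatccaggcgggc
TUBB4B: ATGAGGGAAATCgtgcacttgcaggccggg
TUBB6: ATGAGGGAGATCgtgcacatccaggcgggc
TUBG1: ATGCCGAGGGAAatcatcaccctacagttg

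All 30 bases were the same in TUBA1A, TUBA1B and TUBA1C, and TUBB and TUBB4B shared their first 4 codons. This compares bases only. Different codons can encode the same amino acid, so starts that differ here need not encode different peptides. TUBG1, which encodes no dimer subunit, started differently. For TUBA4A, the transcript with the most reads (ENST00000392088.6, mean 77.45 reads) has a shorter coding sequence of 1299 bases and another start than the MANE Select transcript (ENST00000248437.9, mean 77.35 reads). Their counts were nearly equal, and these values do not tell the 2 starts apart.

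In hg38, the coding starts lie at chr12:49186807-49188979 (TUBA1A, minus strand), chr12:49129696-49131300 (TUBA1B, minus strand) and chr12:49265182-49269491 (TUBA1C, plus strand), and these 3 spans include the first coding intron. The start of the counted TUBA4A transcript lies at chr2:219252159-219252188 and that of its MANE Select transcript at chr2:219252204-219253858, both on the minus strand. The MANE Select span also includes an intron. The β-tubulin starts lie at chr6:30720507-30720536 (TUBB, plus strand), chr6:3157434-3157463 (TUBB2A, minus strand), chr6:3227514-3227543 (TUBB2B, minus strand), chr9:137241361-137241390 (TUBB4B, plus strand) and chr18:12308293-12308322 (TUBB6, plus strand). TUBG1 starts at chr17:42609738-42609767 on the plus strand. TUBA1A, TUBA1B and TUBA1C thus lie in 1 cluster on chromosome 12, and TUBB2A and TUBB2B lie close together on chromosome 6.

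Tubulin paralogs are alike in sequence. Over the coding sequence, TUBB2A and TUBB2B were 98.2% identical, TUBA1B and TUBA1C 97.3%, TUBA1A and TUBA1B 97.2%, and TUBA1A and TUBA1C 96.3%. Reads were 50 nt long and were kept only where they mapped to 1 locus, so stretches of 50 bases that recur elsewhere could give few or no reads. Stretches found elsewhere in the genome or in another gene's transcripts made up 64.6% of the TUBB2A transcript, 62.7% of TUBA1B, 54.9% of TUBB2B and 49.3% of TUBA1A. They made up 27.4% of TUBA1C, 23.4% of TUBB, 11.2% of TUBB4B, 4.5% of TUBA4A and 1.1% of TUBB6. None of the TUBA4A stretches recurred elsewhere in the genome, as all 111 lay in transcripts of TUBA4B. In TUBG1 such stretches were 467 of 1559, with 391 elsewhere in the genome, and most were shared with TUBG2. Values for TUBA1A, TUBA1B and TUBA1C, and for TUBB2A and TUBB2B, therefore rest largely on the stretches that differ. Whether reads were placed on the wrong paralog was not tested, and levels of genes rich in shared stretches may be understated.

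Library totals were between 52352359 and 96963584 counts over 0 to 10 h, and were 21220829 (shControl) and 40157613 (shZNF598) at 24 h. The 2 shControl libraries at 0 h were less alike than those of any other group. Pearson's r of their log2 CPM was 0.9768, against 0.989 or more in the other groups. Every percentage of the 0 h level in shControl cells, and the comparison of the arms at 0 h, rests on these 2 libraries. The targeted gene, ZNF598, was at 4.05 to 8.55 CPM in the shControl libraries and at 0.419 to 2.41 CPM in the shZNF598 libraries, 24 h included, with no overlap. Averaged over 0 to 10 h, its log2 difference was -3.05 ± 0.09 (SE), with an adjusted p of 1.17e-18 by edgeR's quasi-likelihood test (Benjamini-Hochberg over all transcripts). Of 7 genes known from HEK293T cells, 6 passed the 1 CPM minimum, including VIM and KRT18, while PAX2 did not. Between arms, averaged over 0 to 10 h, 4 of the 6 markers passed by edgeR: NEFM (log2 difference -0.79 ± 0.09, adjusted p = 5.35e-07), KRT8 (-0.17 ± 0.06, adjusted p = 0.0249) and CDH2 (-0.15 ± 0.05, adjusted p = 0.0356) were lower in shZNF598 cells and VIM was higher (0.15 ± 0.04, adjusted p = 0.0128). KRT18 and NEFL did not pass. NEFM was also lower at 2 h and at 10 h, and the part of these marker differences in the tubulin levels was not tested. The 5 markers of blood, liver and muscle (PTPRC, CD3E, HBB, ALB, MYH7) reached at most 0.0062 CPM on average.

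At the end of labelling the α-tubulin mRNA TUBA1B was the most abundant of the 10 per length. Its level in shControl cells was 449 ± 75 CPM per kb (SD, n = 2), against 184 ± 30 for TUBA1A, 161 ± 28 for TUBA1C and 151 ± 19 for TUBB, the most abundant β-tubulin mRNA. The order then ran through TUBB4B (73.9 ± 8.3), TUBG1 (27.3 ± 2.2), TUBB2A (24.5 ± 3.2), TUBB2B (22.5 ± 3.0), TUBB6 (13.02 ± 1.43) and TUBA4A (0.685 ± 0.068). Neighbours whose shControl libraries overlapped in this order were TUBA1A and TUBA1C, TUBA1C and TUBB, TUBG1 and TUBB2A, and TUBB2A and TUBB2B. The other neighbours did not overlap, and the mean of TUBA1B was 655.8 times that of TUBA4A. Levels were divided by the whole transcript length, shared stretches included. The order and this ratio could therefore differ if only unshared stretches were counted. TUBA4A was read by only 25 to 135 counts per library, so its values are the least precise. In bulk libraries such as these, a lower level in every cell and fewer cells with the mRNA cannot be told apart.

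**Figure D1:**
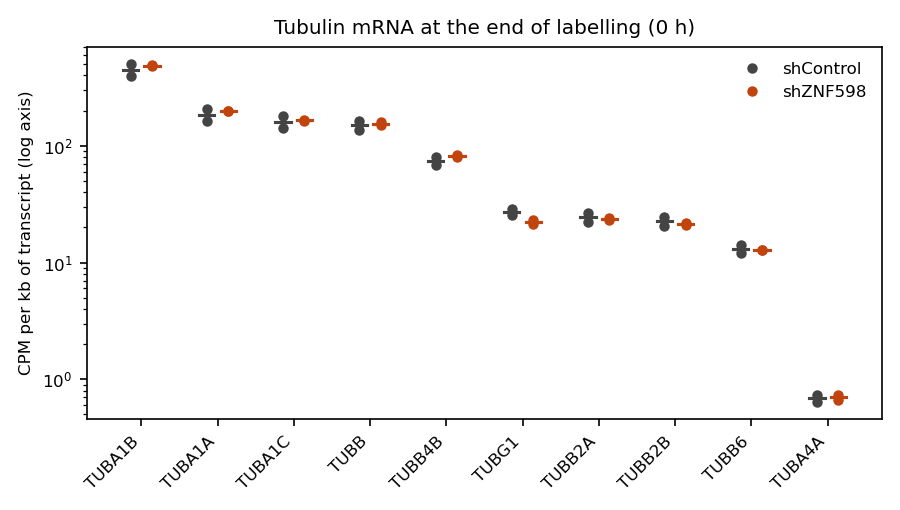
Level of each tubulin mRNA at 0 h in CPM per kb of transcript (log axis), with 1 point per library (n = 2 per shRNA) and a bar at the mean. TUBA1B lies highest (449 CPM per kb in shControl cells) and TUBA4A lowest (0.685).

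During the chase in shControl cells, the α-tubulin 1 mRNAs and the β-tubulin mRNAs moved in opposite directions relative to the bulk of labelled RNA. CPM values are relative to all RNA in a library, so a positive slope means slower loss than the bulk and a negative slope faster loss, and neither gives a half-life. TUBA1A, TUBA1B and TUBA1C rose, and the other 7, among them every β-tubulin gene and TUBG1, fell.

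TUBA1B had 644.7 and 816.6 CPM at 0 h, 703.9 and 652.7 at 2 h, 834.7 and 844.4 at 4 h, 965.8 and 1131 at 6 h, and 1199 and 1205 at 10 h. The 10 h libraries were above all others, while the 2 h libraries lay within the range at 0 h. Its slope was 0.0845 ± 0.0142 log2 per hour (SE, edgeR, adjusted p = 1.93e-05), and at 10 h its mean stood at 165% of that at 0 h. TUBA1A (slope 0.0775 ± 0.0131, 159% at 10 h) and TUBA1C (0.0693 ± 0.0156, 147%) also rose, and they may not be independent of TUBA1B, with which they share sequence. With the reads of the 3 genes summed into 1 row, the slope was 0.0784 ± 0.0142 (adjusted p = 4.64e-05).

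TUBB had 345.8 and 412.6 CPM at 0 h, 334.7 and 335.2 at 2 h, 341.8 and 337.3 at 4 h, 273.0 and 312.3 at 6 h, and 239.8 and 228.7 at 10 h. Both 10 h libraries lay under all earlier ones, and the mean at 10 h was 61.8% of that at 0 h. Its slope was -0.0675 ± 0.0107 log2 per hour (edgeR, adjusted p = 9.37e-06).

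TUBB4B, another widely expressed β-tubulin, had 106.4 and 124.8 CPM at 0 h, 98.08 and 98.54 at 2 h, 94.12 and 82.43 at 4 h, 59.09 and 67.34 at 6 h, and 41.99 and 39.10 at 10 h. Its libraries did not overlap between 0, 2, 4, 6 and 10 h, and 35.1% was left at 10 h. Its slope, -0.1544 ± 0.0138, had the lowest adjusted p of the 10 genes (4.05e-09, edgeR).

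Among the less abundant β-tubulins, TUBB2A fell from 35.96 and 43.22 CPM at 0 h to 20.24 and 20.15 at 10 h (slope -0.0942 ± 0.0133), and TUBB2B, its near-identical neighbour, from 39.25 and 47.36 to 21.46 and 21.44 (-0.0985 ± 0.0137). TUBB6 fell from 22.57 and 26.35 CPM to 10.43 and 9.485 (slope -0.1314 ± 0.0149). In each of these genes both 10 h libraries were below both 0 h libraries.

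TUBA4A, whose MANE Select transcript encodes an α-tubulin, did not move with the other α-tubulin genes. It had 1.593 and 1.832 CPM at 0 h and 0.5529 and 0.5067 at 10 h (slope -0.1673 ± 0.0238, edgeR, adjusted p = 2.4e-06). TUBG1 had 41.35 and 46.37 CPM at 0 h and 26.22 and 23.08 at 10 h (slope -0.0753 ± 0.0128, adjusted p = 2.21e-05). The groups did not overlap in either gene.

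All 10 genes thus passed the test in shControl cells, 3 upwards and 7 downwards. Such slopes were common: 74.4% of all tested transcripts passed, 33.5% upwards and 40.8% downwards, with a median slope of -0.0178 against -0.0848 over the 10 genes. All 10 calls held when any 1 of the 20 libraries was left out, but not with the 24 h library added. Then 4 of the 10 passed, the slopes of TUBA1A, TUBA1B and TUBA1C were -0.0008, -0.0009 and -0.0026, and TUBB, TUBB4B and TUBB6 no longer passed (adjusted p of 0.0661, 0.0879 and 0.26). Over 0 to 4 h alone 3 of the 10 passed, and the slopes of the α-tubulin 1 genes were 0.0050 to 0.0481 and did not pass. How many of all transcripts passed over these other time ranges was not counted. The lower counts therefore cannot be read as particular to tubulin genes.

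**Figure D2:**
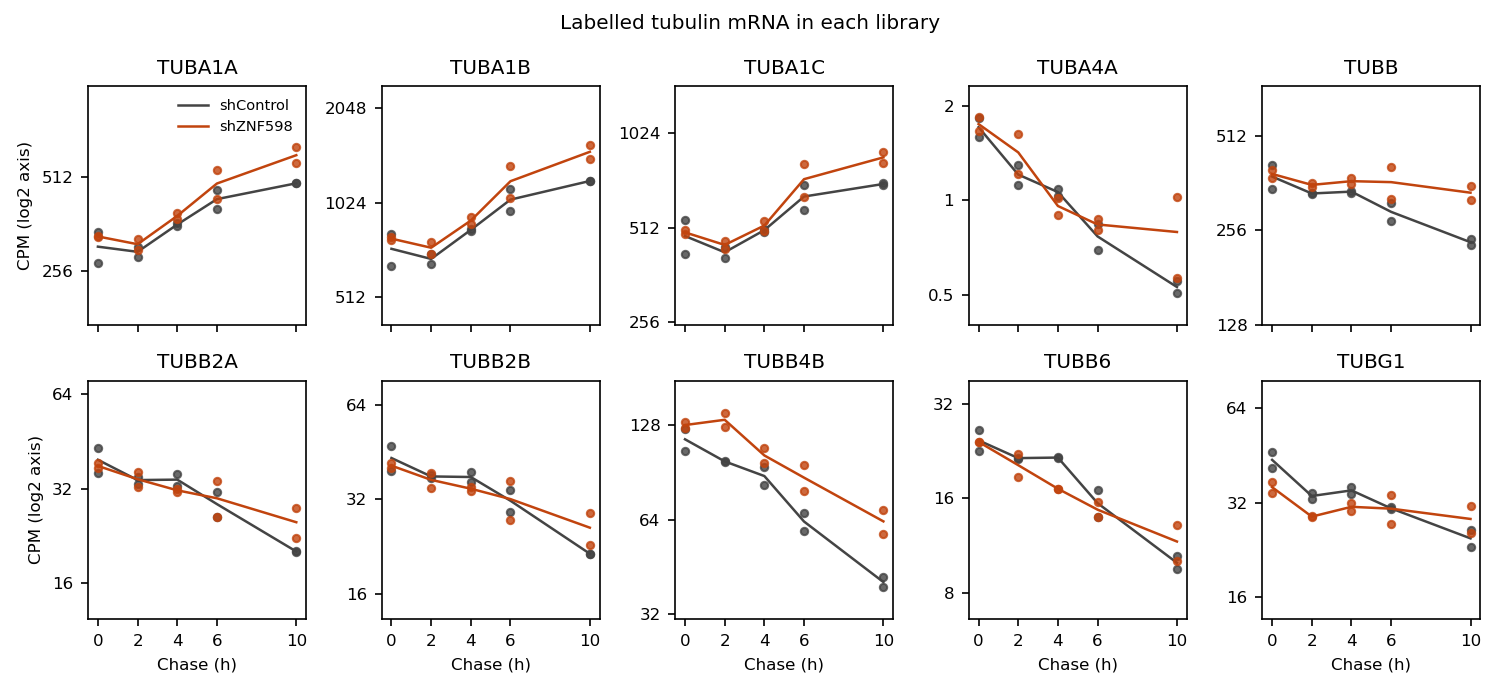
CPM of each tubulin mRNA against chase time (log2 axis spanning the same fold range in every panel), with 1 point per library (n = 2 per shRNA and time) and lines through the means. TUBA1A, TUBA1B and TUBA1C stand at 147% to 189% of their 0 h level at 10 h, while the other 7 genes end below it in both arms.

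In shZNF598 cells the directions were the same, with 3 genes passing upwards and 5 downwards. Of all transcripts 71.2% passed, 32.7% upwards and 38.5% downwards. TUBA1B had 794.7 and 779.8 CPM at 0 h and 1409 and 1569 at 10 h, with a slope of 0.1053 ± 0.0140 log2 per hour (edgeR, adjusted p = 1.26e-06). The slopes were 0.0978 ± 0.0129 for TUBA1A and 0.0944 ± 0.0155 for TUBA1C. TUBA4A (-0.1269 ± 0.0229), TUBB4B (-0.1124 ± 0.0136), TUBB6 (-0.1062 ± 0.0143), TUBB2B (-0.0640 ± 0.0134) and TUBB2A (-0.0583 ± 0.0129) fell.

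TUBB and TUBG1 did not pass in these cells. TUBB had 398.2 and 375.0 CPM at 0 h and 320.0 and 353.8 at 10 h, and its slope was -0.0160 ± 0.0105 (edgeR, adjusted p = 0.177). TUBG1 had 37.27 and 34.51 CPM at 0 h and 25.70 and 31.15 at 10 h, and its slope was -0.0246 ± 0.0126 (edgeR, adjusted p = 0.0859). Without the second shZNF598 library at 10 h, the TUBG1 slope was -0.0361 and passed (adjusted p = 0.0355). Passing in one arm and not in the other does not show that the arms differ, which the next comparison tests.

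**Figure D3:**
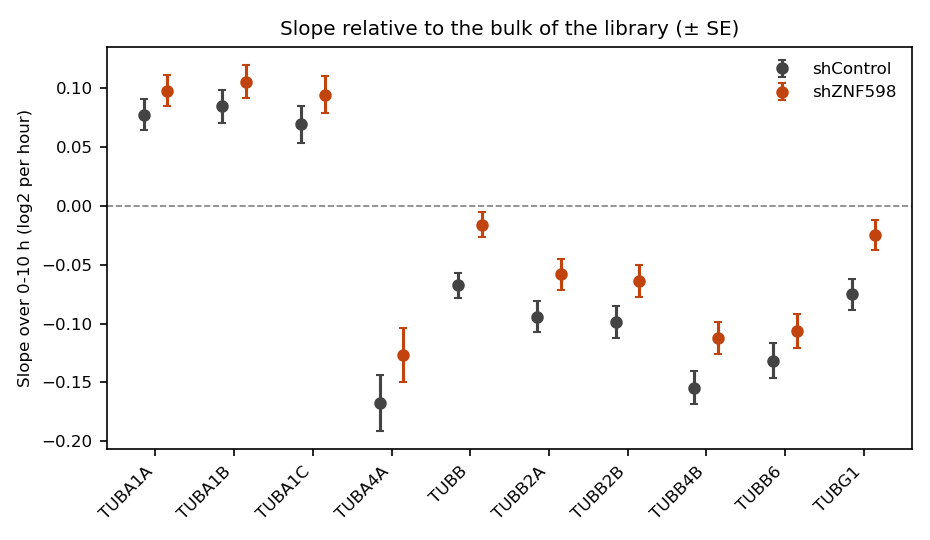
Slope of log2 CPM over 0 to 10 h for each tubulin gene in both arms, in log2 units per hour, with SE bars from the fit over all transcripts (20 libraries). In all 10 genes the point for shZNF598 cells lies above that for shControl cells, by 0.020 to 0.052.

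Whether knockdown changed decay was asked by the difference between the slopes of both arms. None of the 10 genes passed (0.116% of all transcripts did), although all 10 differences were above 0, meaning slower relative loss in shZNF598 cells. The differences ranged from 0.020 to 0.052 log2 per hour with a median of 0.0352, against a median of 0.0008 over all transcripts, 51.2% of which were above 0. The genes share the same 20 libraries and some share sequence, so their 10 directions are not independent of each other.

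TUBB had the largest difference, 0.0516 log2 per hour (95% interval 0.0207 to 0.0825, edgeR, adjusted p = 0.321). That of TUBG1 was 0.0507 (0.0136 to 0.0877, adjusted p = 0.576) and that of TUBB4B 0.0421 (0.0029 to 0.0813, adjusted p = 0.856). These 3 had unadjusted p below 0.05, as did 5.53% of all transcripts. Over other time ranges the TUBB difference was 0.03 (0 to 4 h), 0.0444 (0 to 6 h) and 0.0052 (0 to 24 h). It passed in none of them by edgeR. DESeq2's Wald test on the slopes over 0 to 10 h called TUBB (adjusted p = 0.0405), 1 of the 9 genes to which it gave an adjusted p. This call thus depends on the tool, and the share of all transcripts that DESeq2 called was not counted.

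For the α-tubulin 1 genes the intervals ran from -0.0183 to 0.0589 (TUBA1A), -0.0211 to 0.0627 (TUBA1B) and -0.0210 to 0.0712 (TUBA1C), which leaves room for no difference and for differences as large as that of TUBB. Over 0 to 4 h alone, the differences of TUBA4A, TUBB2A, TUBB2B and TUBB6 were below 0, at -0.0332, -0.0028, -0.0015 and -0.0692. The shared direction thus did not hold over the first hours of the chase.

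At 0 h, before the chase, no tubulin gene differed in level between the arms by edgeR or by DESeq2 (0.407% of all transcripts did by edgeR). Only TUBG1 had an unadjusted p below 0.05, as did 10.1% of all transcripts, with 41.35 and 46.37 CPM in shControl against 37.27 and 34.51 in shZNF598 cells, a log2 difference of -0.29 ± 0.11 (edgeR, adjusted p = 0.37). The groups did not overlap, which is a description only. For the main tubulin mRNAs the intervals of the log2 difference were -0.13 to 0.35 for TUBA1B and -0.20 to 0.25 for TUBB.

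At 2 and 4 h no gene passed by edgeR either (0.746% and 1.4% of all transcripts did), with 1 of the 10 at unadjusted p below 0.05 at each time, against 10.9% and 12.2% of all transcripts. At 2 h that gene was TUBB4B, with 98.08 and 98.54 CPM in shControl against 126.2 and 140.6 in shZNF598 cells, a log2 difference of 0.44 ± 0.12 (edgeR, adjusted p = 0.0853), and DESeq2's Wald test called it, 1 of 10 genes at 2 h and 0 at 4 h. At 4 h it was TUBB6, with 21.46 and 21.65 CPM against 17.12 and 17.17, a log2 difference of -0.33 ± 0.12 (edgeR, adjusted p = 0.244). Neither pair of groups overlapped. How many of all transcripts DESeq2 called at these times was not counted.

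At 6 h TUBB4B was higher in shZNF598 cells. It had 59.09 and 67.34 CPM in shControl against 79.03 and 95.46 in shZNF598 cells, without overlap, a log2 difference of 0.47 ± 0.12 (1.38-fold, edgeR, adjusted p = 0.0313). It was the only one of the 10 to pass, against 2.29% of all transcripts (0.722% upwards). The call was lost without the first shControl (log2 difference 0.37, adjusted p = 0.299), the second shControl (0.56, 0.0801) or the second shZNF598 library at 6 h (0.32, 0.277). Without the first shZNF598 library, TUBB also passed (0.47, adjusted p = 0.0347).

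At 10 h TUBB and TUBB4B were both higher in shZNF598 cells, and all 10 differences were above 0, as were 54% of all transcripts. As for the slopes, these 10 directions are not independent of each other. TUBB had 239.8 and 228.7 CPM in shControl against 320.0 and 353.8 in shZNF598 cells, a log2 difference of 0.52 ± 0.11 (1.44-fold, edgeR, adjusted p = 0.00568). TUBB4B had 41.99 and 39.10 CPM against 57.55 and 69.03, a log2 difference of 0.64 ± 0.12 (1.56-fold, adjusted p = 0.00189). In both genes the 4 libraries did not overlap between arms, and how many of all transcripts also did not was not counted.

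These 2 of 10 calls at 10 h stand against 3.23% of all transcripts, 0.799% of them upwards. The median log2 difference at 10 h was 0.30 over the 10 genes and 0.02 over all transcripts, and 6 of the 10 genes had unadjusted p below 0.05, as did 17.2% of all transcripts. Among genes that did not pass, TUBA1B had 1199 and 1205 CPM against 1409 and 1569 (log2 difference 0.31 ± 0.12, adjusted p = 0.152) with no overlap, and it passed when no filter on low counts was used (0.30, adjusted p = 0.043). TUBG1, with 26.22 and 23.08 against 25.70 and 31.15 CPM, overlapped.

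Both calls at 10 h depended on single libraries. Without the second shControl library at 10 h the log2 difference was 0.49 for TUBB (adjusted p = 0.119) and 0.59 for TUBB4B (adjusted p = 0.0678). Without the second shZNF598 library at 10 h it was 0.45 (adjusted p = 0.0987) and 0.51 (adjusted p = 0.0715). The lone library left in a group was then assumed to vary like the other groups.

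**Figure D4:**
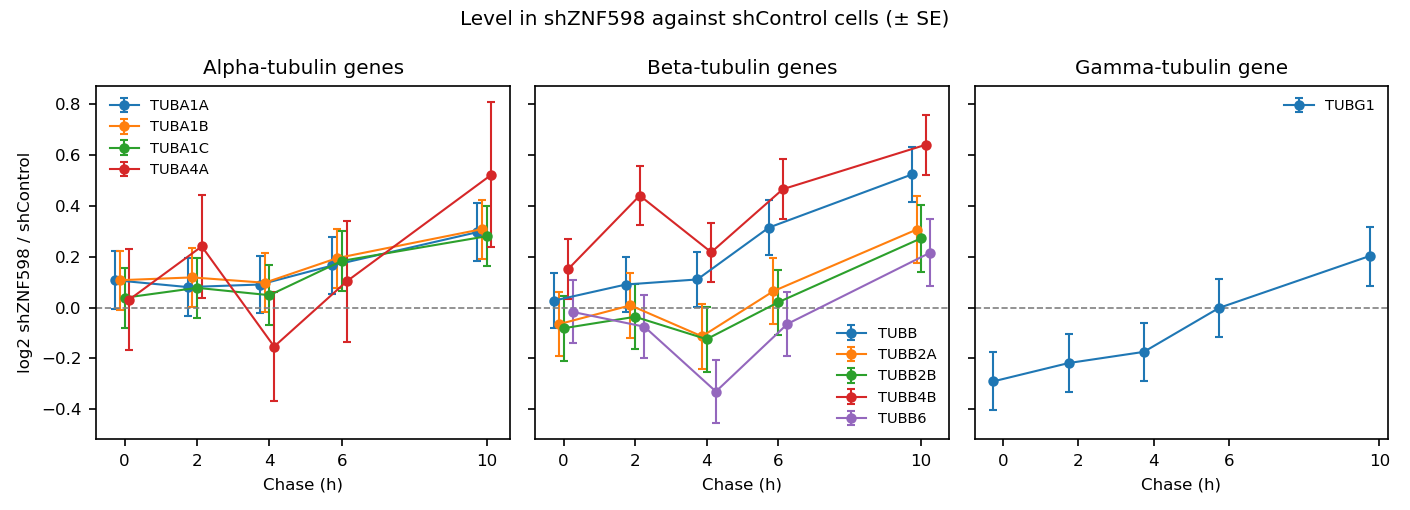
log2 difference in level between shZNF598 and shControl cells at each chase time, with SE bars (n = 2 libraries per arm and time), for the α-, β- and γ-tubulin genes. At 10 h all 10 genes lie above 0, from 0.20 (TUBG1) to 0.64 (TUBB4B), as do 54% of all transcripts. At 0 h the 10 genes lie on both sides of 0.

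Averaged over 0 to 10 h, 4 of the 10 genes were higher in shZNF598 cells and none was lower, against 22.4% of all transcripts called, 12.3% upwards. These were TUBB4B (log2 difference 0.38 ± 0.05, edgeR, adjusted p = 9.37e-06), TUBB (0.21 ± 0.05, adjusted p = 0.00263), TUBA1B (0.17 ± 0.05, adjusted p = 0.023) and TUBA1A (0.15 ± 0.05, adjusted p = 0.0363). TUBA1C was at 0.13 ± 0.05 and did not pass (adjusted p = 0.0885), but did without the second shControl library at 0 h (0.16, adjusted p = 0.0135) or the first shZNF598 library at 6 h (0.16, adjusted p = 0.0255), and with no filter on low counts (0.14, adjusted p = 0.0154). The summed α-tubulin 1 genes were at 0.15 ± 0.05 (adjusted p = 0.0379).

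With 1 row per gene in the table, 2 of the 4 calls were left, as TUBA1B (0.16, adjusted p = 0.051) and TUBA1A (0.14, adjusted p = 0.0721) no longer passed. The calls of TUBB4B and TUBB held then and when any 1 library was left out. That of TUBA1B was lost without the second shControl library at 2 h (0.16, adjusted p = 0.0569), the first shControl library at 6 h (0.14, 0.0618) or the second shZNF598 library at 6 h (0.13, 0.0578). That of TUBA1A was lost in 13 of 20 such fits, at log2 differences of 0.12 to 0.15 and adjusted p of 0.0575 to 0.0899. It held only without the second shControl library at 0 h, the first at 2 h or the second at 6 h, or without the second shZNF598 library at 2 h or the first at 4, 6 or 10 h.

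The ratio of α- to β-tubulin reads, which does not depend on how libraries are scaled, was higher late in the chase in both arms. It was taken from the raw counts of the 4 α-tubulin and 5 β-tubulin genes and is given as a description. In shControl cells it was 2.44 and 2.60 at 0 h, 2.76 and 2.57 at 2 h, 3.18 and 3.37 at 4 h, 4.88 and 4.98 at 6 h, and 7.15 and 7.55 at 10 h. In shZNF598 cells it was 2.57 and 2.66 at 0 h, 2.66 and 2.50 at 2 h, 3.20 and 3.34 at 4 h, 4.563 and 4.604 at 6 h, and 6.47 and 6.28 at 10 h. Both arms overlapped up to 4 h, and the shZNF598 libraries lay under the shControl libraries at 6 and 10 h.

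Within the β-tubulins, the reads of TUBB4B per read of TUBB went from 0.307 and 0.302 at 0 h to 0.175 and 0.171 at 10 h in shControl cells, and from 0.330 and 0.334 to 0.180 and 0.195 in shZNF598 cells. TUBB4B thus made up less of the β-tubulin reads at 10 h in both arms. TUBG1 reads per read of its paralog TUBG2, which shares part of its sequence, were 2.67 to 3.03 in all 20 libraries of 0 to 10 h.

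**Figure D5:**
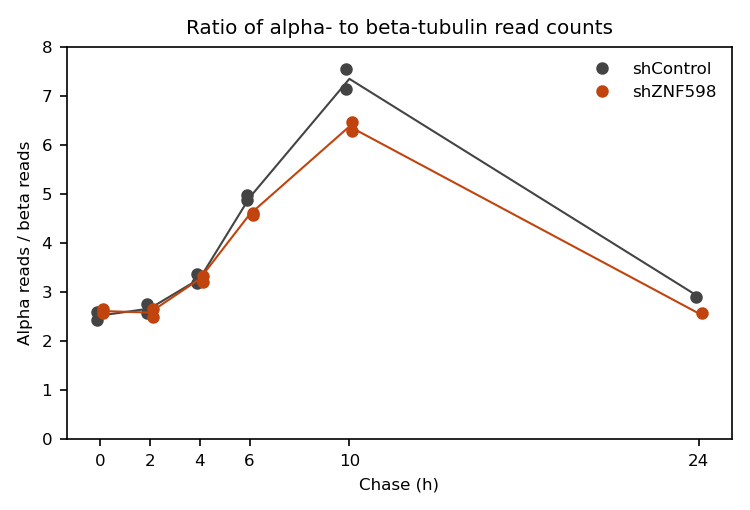
Ratio of raw α-tubulin reads (4 genes) to β-tubulin reads (5 genes) in each library against chase time, with lines through the means (n = 2 per shRNA and time, n = 1 at 24 h). The ratio lies between 2.44 and 2.66 at 0 h, reaches 6.28 to 7.55 at 10 h and is 2.90 and 2.56 at 24 h.

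At 24 h, with 1 library per arm and so no test, some genes stood lower than at 10 h and others higher. TUBA1B had 531.6 CPM with shControl and 505.6 with shZNF598, below every library of 0 to 10 h. TUBB was at 266.8 and 274.8 CPM, TUBB4B at 68.52 and 78.42 CPM, above both 10 h libraries of its own arm, and TUBB6 at 18.45 and 18.82 CPM, likewise above. TUBB was above its 10 h libraries in shControl and below them in shZNF598 cells. TUBB2A (15.21 and 19.13 CPM) and TUBB2B (17.03 and 19.48 CPM) stood below their 10 h libraries. The ratio of α- to β-tubulin reads was 2.90 and 2.56, near that at 0 h. These 24 h CPM values were scaled together with the other libraries, which moved the members' values by up to 4.4%.

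Other genes of the tubulin system were taken from lists by function, and the slope difference between arms passed for none of them by edgeR. DESeq2's Wald test called none of those to which it gave an adjusted p, 3 of 6 further tubulins, 8 of 9 ring complex genes, 8 of 12 cofactors, 2 of 3 autoregulation genes, 8 of 13 enzymes and 13 of 15 binding proteins. Of 13 further tubulin genes 6 were expressed enough to test, of which 4 were higher in shZNF598 cells averaged over 0 to 10 h (12.3% of all transcripts were) and 5 fell relative to the bulk in shControl cells (40.8% did). The 4 were the β-tubulins TUBB8, which has near-identical copies (log2 difference 0.42 ± 0.10, edgeR, adjusted p = 0.00258), TUBB3 (0.22 ± 0.05, adjusted p = 0.00605) and TUBB4A (0.15 ± 0.06, adjusted p = 0.0487) and the centriolar ε-tubulin TUBE1 (0.29 ± 0.06, adjusted p = 0.000897). At 10 h TUBB3 (0.49 ± 0.13, adjusted p = 0.0311) and TUBB4A (0.50 ± 0.13, adjusted p = 0.0371) were higher, as were 0.799% of all transcripts. The other calls at 10 h in these lists, named after their values were seen, were KIF2C, higher (0.41 ± 0.10, adjusted p = 0.0215), and the folding cofactors TBCB (-0.59 ± 0.13, adjusted p = 0.00745) and VBP1 (-0.38 ± 0.10, adjusted p = 0.037), lower. Slope differences of the 6 further tubulins had a median of 0.0486 log2 per hour, against 0.0008 over all transcripts. They were above 0 in 4 of the 6, and 4 had an unadjusted p below 0.05 by edgeR, as did 5.53% of all transcripts.

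The autoregulation genes TTC5, SCAPER and CNOT11 did not pass in level at any time or on average by either tool. By edgeR, 1 of the 3 had an unadjusted p below 0.05 at 6 h (14.8% of all transcripts did). On average 1 of the 3 did (35% of all transcripts), and none did in the slope difference. Their averaged log2 differences were -0.08 ± 0.05 for TTC5, -0.005 ± 0.062 for SCAPER and -0.13 ± 0.05 for CNOT11 (edgeR, adjusted p of 0.329, 0.964 and 0.0779). In shControl cells TTC5 (slope -0.0949 ± 0.0148 log2 per hour) and CNOT11 (-0.1404 ± 0.0189) fell relative to the bulk, and SCAPER rose (0.0368 ± 0.0132).

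All 9 tested genes of the γ-tubulin ring complex, which nucleates microtubules with TUBG1, were expressed, and 2 were higher on average in shZNF598 cells, the complex subunits TUBGCP3 (0.22 ± 0.07, edgeR, adjusted p = 0.0279) and TUBGCP5 (0.16 ± 0.06, adjusted p = 0.0438). DESeq2's Wald test called TUBGCP3 only. Of 12 folding cofactors, which bring tubulin chains to dimers, 1 was higher and 2 were lower. The prefoldin subunit PFDN5 was higher (0.30 ± 0.06, adjusted p = 0.00101), and the cofactor TBCB (-0.39 ± 0.06, adjusted p = 3.28e-05) and the prefoldin subunit PFDN1 (-0.41 ± 0.05, adjusted p = 4.04e-06) were lower. Slope differences had a median of -0.0038 log2 per hour in the ring complex, with no unadjusted p below 0.05, and -0.0324 in the cofactors, with 3 of 12 below it.

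Among 13 tested enzymes that modify tubulin, 2 were lower by edgeR, the detyrosinating enzyme VASH1 (-0.18 ± 0.06, edgeR, adjusted p = 0.0285) and the deglutamylase AGTPBP1 (-0.19 ± 0.05, adjusted p = 0.00681), while DESeq2's Wald test also called HDAC6. Among 15 tested microtubule-binding proteins, 4 were higher and none lower. These were MAP7, which recruits kinesin (0.32 ± 0.06, adjusted p = 0.000596), the dimer-binding stathmins STMN3 (0.31 ± 0.07, adjusted p = 0.0017) and STMN1 (0.18 ± 0.05, adjusted p = 0.00818), and the depolymerase KIF2C (0.20 ± 0.04, adjusted p = 0.0023). Over all transcripts, 22.4% passed in this comparison. No gene of these last 2 lists had an unadjusted p below 0.05 in the slope difference.

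Across the 20 libraries of 0 to 10 h, the members followed 2 patterns. Pearson's r of log2 CPM was 0.998 between TUBA1A and TUBA1B and 0.997 between TUBB2A and TUBB2B, pairs that share sequence, and -0.805 between TUBA1B and TUBB6. The mean profile of the 10 genes was most like those of POLR3E (r = 0.933), DIPK1B (0.924), B4GALT2 (0.920), SMARCD2 (0.917) and CCND3 (0.916), among 4292 other genes with at least 10 CPM. TUBB had an r of 0.948 with that mean profile, whereas TUBA1A, TUBA1B and TUBA1C had -0.317, -0.316 and -0.265, so it stood for the β-tubulins rather than the α-tubulin 1 genes. The genes most like TUBA1B alone, a choice made after these values were seen, were DMKN (r = 0.986), EEF2 (0.979) and HDGF (0.978). All these values describe the same 20 libraries, and the chase time is common to all of them.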

How the data were processed

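The deposited tables held raw read counts per transcript, 1 table per library. Per the study's methods, the authors trimmed 50-nt single-end reads with fastp, aligned them to hg38 with STAR 2.7.0a (at most 1 mismatch, 1 locus) and counted them per GENCODE 32 transcript with featureCounts. How reads shared by isoforms were counted is not given in the sources used here. In 45.2% of 8595 genes (mean of at least 100 counts), the second protein-coding row held at least 95% of the first row's count. The submitters' processing notes also name CASAVA 1.8. The strand setting is not given in the sources used here, and 3 spike-in RNAs were not used here. Symbols came from GENCODE 44 (98.4% of transcripts matched).

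Counts of the 20 libraries of 0 to 10 h were scaled by TMM. Rows whose mean reached 1 CPM were fitted in R 4.3.3 by edgeR 4.0.16 (glmQLFit, glmQLFTest), with p-values adjusted by Benjamini-Hochberg over all 79513 transcripts and calls at 0.05. Levels were fitted with 1 mean per group, and slopes as a straight line in each arm, in log2 change per hour. Intervals are 95% t intervals. DESeq2 1.42.0, other filters, time ranges, rows and left-out libraries were alternatives. Scripts were tested on simulated data. The named genes were the 10 members, ZNF598, the autoregulation genes, up to 4 called genes per list and comparison (slope difference, level at 0 h and averaged level), and the 5 genes most like the members. The members and lists were chosen with earlier results of these data known. Summed paralogs, the levels at 6 and 10 h and the likeness to TUBA1B were added after seeing the data.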

Additional observations from a re-analysis of the deposited data

How the results depend on the processing

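The 3 counts of calls at single times and on average varied when 1 library was left out, over 0 to 2 genes at 6 h, 0 to 2 at 10 h and 2 to 5 for the averaged level. With 1 row per gene the averaged level was called for 2 genes, TUBA1A (adjusted p = 0.0721) and TUBA1B (adjusted p = 0.051) being lost, and the log2 difference of TUBB2B was 0. DESeq2's Wald test called 1 slope difference, that of TUBB, where edgeR called 0, and DESeq2's share of all transcripts was not counted. With the 24 h libraries, slopes passed for 4 genes in shControl and 3 in shZNF598 cells. Over 0 to 4 h they passed for 3 and 2. The shares of all transcripts passing over these time ranges were not counted, and the cause was not tested.

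Some directions reversed. With the 24 h libraries the slopes were -0.0008 (TUBA1A), -0.0009 (TUBA1B) and -0.0026 (TUBA1C) in shControl cells and -0.0014, -0.0005 and -0.0016 in shZNF598 cells, and the slope difference of TUBA1A was -0.0007. Over 0 to 4 h the slope difference was -0.0332 for TUBA4A, -0.0028 for TUBB2A, -0.0015 for TUBB2B and -0.0692 for TUBB6, and over 0 to 6 h -0.0085 for TUBA4A and -0.0211 for TUBB6. The 0 h libraries alone gave level differences of -0.004 for TUBA4A and -0.008 for TUBB, and no filter gave 0.005 for TUBB6 at 0 h. TUBG1 at 6 h was at 0.001 with DESeq2's test, 0 with its size factors and 0.001 with its second transcript. None of these was called.

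With 1 library left out, the level at 0 h ranged from -0.048 to 0.283 for TUBA1A, -0.053 to 0.288 for TUBA1B, -0.128 to 0.228 for TUBA1C, -0.064 to 0.137 for TUBA4A, -0.192 to 0.074 for TUBB2A, -0.210 to 0.061 for TUBB2B, -0.124 to 0.10 for TUBB6 and -0.094 to 0.161 for TUBB. At 6 h it ranged from -0.001 to 0.348 for TUBA1C, -0.013 to 0.269 for TUBA4A, -0.139 to 0.242 for TUBB2A, -0.197 to 0.208 for TUBB2B, -0.202 to 0.080 for TUBB6 and -0.170 to 0.147 for TUBG1. The averaged level ranged from 0 to 0.076 for TUBB2A and -0.033 to 0.048 for TUBB2B, and the slope difference of TUBA4A from -0.0054 to 0.0542.

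Replicate numbers are shared between groups, and these values do not settle whether they pair some of the libraries. The r between the replicate deviations of 45 pairs of groups ran from -0.327 to 0.475, with a median of 0.029, and 12 were above 0.1. A single block for all groups, used next, cannot show pairing in only some of them. With the replicate number as a block, 10 slopes passed in shControl and 8 in shZNF598 cells, 0 slope differences, 0 levels at 0 h, 1 at 6 h, 2 at 10 h and 4 averaged levels, and ZNF598 was at -3.054, so the block changed no count. A second protein-coding transcript could not be tried for 3 genes that have none.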
